A study of Mus musculus with 24 samples.

Results

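The 10 genes described here carry peptides to the surface of RN2 cells on major histocompatibility complex (MHC) class I molecules. They were taken by symbol from a table of 53465 genes: B2m, H2-K1, H2-D1, Tap1, Tap2, Tapbp, Psmb8, Psmb9, Psmb10 and Nlrc5. All 10 had a row and all 10 were among the 14249 genes abundant enough to test. RN2 is a cultured mouse acute myeloid leukaemia line with the genotype Mll-Af9; NrasG12D, which every group shares. Clones carried a doxycycline-inducible hairpin delivered by a retroviral vector. The control hairpin was shRen713 (clones 2 and 7), and Ogdh, the gene of the 2-oxoglutarate dehydrogenase subunit, was targeted by shOgdh346 (clones 1 and 5) or shOgdh2081 (clones 3 and 5). Each clone was sampled untreated at day 0 and after doxycycline at day 4, with 2 libraries each time, which gave 24 libraries in 6 groups of 4. Every hairpin rests on 2 clones. The p-values of changes measure the spread of the clones' day 4 minus day 0 changes within hairpins, in 1 estimate for all hairpins that also borrows from other genes. A hairpin cannot be told apart from traits its 2 clones share.

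Class I molecules display peptides cut from the cell's own proteins to cytotoxic T cells and are read by natural killer cells. The proteasome makes the peptides, and in blood cells and after interferon gamma its catalytic subunits Psmb5, Psmb6 and Psmb7 are replaced by Psmb8, Psmb9 and Psmb10 to form the immunoproteasome. The transporter of Tap1 and Tap2 moves peptides into the endoplasmic reticulum, where tapasin (Tapbp) helps load them onto a heavy chain (H2-K1 or H2-D1) paired with beta-2 microglobulin (B2m). Nlrc5 is a coactivator of class I genes that acts at a promoter element shared by many of them.

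The immunoproteasome subunits Psmb8, Psmb9 and Psmb10 and the transporter genes Tap1 and Tap2 fell with Ogdh knockdown from day 0 to day 4 beyond the control. H2-D1 rose by the same measure, and B2m, H2-K1, Tapbp and Nlrc5 did not pass the test. This net change is the day 4 minus day 0 change of the Ogdh hairpins, averaged, minus that of the control, on the log2 scale. Of the 10 genes 5 fell, against 19.8% of all genes tested, and 1 rose, against 17.9% (edgeR quasi-likelihood test, Benjamini-Hochberg adjusted p under 0.05). The median net change of the 10 was -0.58, beside -0.002 over all genes tested. Markers of neutrophil maturation moved with these changes, with a sum of 457 to 1542 CPM over control libraries at day 4 and of 7083 to 44064 over Ogdh libraries (CPM, counts scaled by TMM to a common library size), and their part in these results was not tested.

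Libraries held 7209186 to 20705468 counts, and each of the 10 genes had between 28 and 11318 counts in every library. The knockdown held in all Ogdh clones: Ogdh was at 225 ± 27.8 CPM (mean ± SD, n = 2 clones) at day 4 in the control and at 48.6 ± 16.5 (n = 4) with the Ogdh hairpins. At day 0 it was at 228 ± 27.4 and 163 ± 34.2, and the shOgdh346 libraries (126 to 150) were already below every control library (202 to 250). Its net change was -1.76 ± 0.18 (SE; adjusted p = 0.000400). Libraries numbered 2 at day 0 gave more Nlrc5 than those numbered 1 in 6 of 6 clones, by 0.36 to 0.57 on the log2 scale. They gave less B2m, H2-K1, H2-D1 and Tapbp in 6 of 6 clones, so results on these 5 genes were also computed from either number alone. The calls of these 5 genes on the mean net change were then the same. At day 4 libraries numbered 2 gave more Tap1 (by 0.03 to 0.23), Tap2 (0.10 to 0.26) and Tapbp (0.03 to 0.21) in 6 of 6 clones. From replicate 1 alone at both days Tap1 lost its call on the mean net change (edgeR adjusted p = 0.0799), and Tap2 kept it.

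Promoter stretches of 5 genes set those of the heavy chains and B2m, none of which fell past the test, beside those of genes that fell. Each run holds the 250 bases before a RefSeq transcript start on GRCm38.p6, 5′ to 3′ on the gene's strand. Capitals mark matches, on either strand, to the searched motifs: an interferon-stimulated response element (GAAANNGAAA), a composite element of ETS and IRF factors (GGAANNGAAA), a STAT element (TTCNNNGAA), the NF-kB consensus, the CCAAT box (read as ATTGG on the other strand) and site alpha (TGACGC), part of the class I enhanceosome module.
B2m, chr2:122147437-122147686, plus strand: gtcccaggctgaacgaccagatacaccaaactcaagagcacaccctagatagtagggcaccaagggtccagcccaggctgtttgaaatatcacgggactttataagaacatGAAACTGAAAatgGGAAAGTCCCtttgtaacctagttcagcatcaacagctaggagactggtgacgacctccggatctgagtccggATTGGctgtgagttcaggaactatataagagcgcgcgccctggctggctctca
H2-K1, chr17:34000334-34000583, minus strand: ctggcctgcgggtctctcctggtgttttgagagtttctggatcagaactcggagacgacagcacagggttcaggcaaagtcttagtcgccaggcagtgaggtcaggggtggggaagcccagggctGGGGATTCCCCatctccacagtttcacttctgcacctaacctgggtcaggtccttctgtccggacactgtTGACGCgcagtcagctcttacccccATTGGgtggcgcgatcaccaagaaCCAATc
H2-D1, chr17:35262844-35263093, plus strand: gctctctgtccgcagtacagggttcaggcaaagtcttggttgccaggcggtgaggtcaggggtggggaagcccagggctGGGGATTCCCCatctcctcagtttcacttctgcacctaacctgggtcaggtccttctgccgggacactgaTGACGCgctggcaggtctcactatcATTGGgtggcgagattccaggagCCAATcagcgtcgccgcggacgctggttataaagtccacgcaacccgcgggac
Tap1, chr17:34187306-34187555, plus strand: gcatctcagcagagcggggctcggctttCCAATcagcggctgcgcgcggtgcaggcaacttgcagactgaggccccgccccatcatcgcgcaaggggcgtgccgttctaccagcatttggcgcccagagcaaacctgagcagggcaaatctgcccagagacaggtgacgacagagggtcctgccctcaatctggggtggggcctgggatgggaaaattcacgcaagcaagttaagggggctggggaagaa
Psmb8, chr17:34197945-34198194, plus strand: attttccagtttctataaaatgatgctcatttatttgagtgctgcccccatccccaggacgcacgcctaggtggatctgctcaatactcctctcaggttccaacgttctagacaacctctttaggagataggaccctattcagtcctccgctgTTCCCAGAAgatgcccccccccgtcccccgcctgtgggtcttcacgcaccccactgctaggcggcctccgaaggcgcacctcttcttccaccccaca

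The stretches of H2-K1 and H2-D1 have the same arrangement: an NF-kB match in which a pair of overlapping matches is read, then site alpha, then a CCAAT box on each strand. H2-K1 has another RefSeq start, not printed. From that start the last CCAAT box lies 8 bases past it, outside the 250 bases before it. B2m has a match to the interferon-stimulated response element as searched, next to an NF-kB match, and 1 CCAAT box. Looser versions of that element were not searched. After the NF-kB match H2-K1 and H2-D1 both read agtttcacttct, which resembles the element on the other strand without matching it. Tap1 and Psmb9 lie head to head, with RefSeq starts 226 bases apart, so their windows share 275 of 300 bases and a single CCAAT box. Psmb8 has a STAT element as its only match, Tapbp has 2 CCAAT boxes, and the window of Psmb10 held no match to any of the 6 motifs. The windows of Psmb8, Psmb9, H2-D1 and Tapbp lie inside the deposited gene models, whose own starts are further upstream. Bases before those starts were not searched for these genes. Windows were found for 8 of the 10 genes, without Tap2 and Nlrc5. Among 32851 RefSeq windows of 300 bases (250 before the start and 50 after it), 3.44% held the interferon-stimulated response element, 2.72% the ETS and IRF composite, 8.3% the STAT element, 8.46% the NF-kB consensus, 37.4% a CCAAT box and 7.4% site alpha. A match describes letters and is no proof of a site in use.

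Psmb8, the chymotrypsin-like subunit of the immunoproteasome (ENSMUSG00000024338, GRCm38 chromosome 17, 34197721 to 34201454, plus strand), was at 140, 140, 146 and 148 CPM in control libraries at day 0 and at 120, 128, 122 and 128 at day 4. With shOgdh346 it was at 187, 177, 157 and 169 at day 0 and at 56.8, 61.4, 81.0 and 78.3 at day 4. With shOgdh2081 it was at 142, 150, 135 and 160 at day 0 and at 72.6, 77.3, 61.9 and 61.8 at day 4. All 8 Ogdh libraries at day 4 were below every control library, while at day 0 the shOgdh346 libraries were above every control library and those of shOgdh2081 overlapped the control. The net change was -1.01 ± 0.16 (SE; edgeR adjusted p = 0.00169), to 0.498 times the control's course.

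Psmb9, the immunoproteasome counterpart of Psmb6 (ENSMUSG00000096727, chromosome 17, 34181988 to 34187764, minus strand), was at 62.1, 50.8, 54.0 and 52.2 CPM in control libraries at day 0 and at 51.8, 54.0, 49.7 and 55.7 at day 4. It went from 65.0, 60.9, 50.9 and 52.1 to 21.4, 23.5, 28.5 and 29.0 with shOgdh346. With shOgdh2081 it went from 51.3, 54.7, 54.1 and 53.6 to 20.1, 19.6, 27.9 and 24.9. The control stayed within 49.7 to 62.1 CPM on both days, and no Ogdh library at day 4 reached that range. Its net change was -1.14 ± 0.19 (edgeR adjusted p = 0.00206).

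Psmb10, the counterpart of Psmb7 and the only subunit of the 3 outside the MHC region (ENSMUSG00000031897, chromosome 8, 105935735 to 105938444, minus strand), was at 62.0, 58.5, 72.7 and 71.7 CPM in control libraries at day 0 and at 51.8, 49.0, 53.8 and 53.6 at day 4. With shOgdh346 the values were 74.8, 74.4, 62.8 and 65.6, then 21.02, 22.5, 29.3 and 28.7. With shOgdh2081 they were 45.1, 58.2, 58.7 and 63.2, then 26.3, 23.9, 22.4 and 19.4. The groups overlapped at day 0 and were apart at day 4, with every control library lower at day 4 than at day 0 as well. Beyond the control, Psmb10 changed by -1.02 ± 0.19 (edgeR adjusted p = 0.00468).

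**Figure D1:**
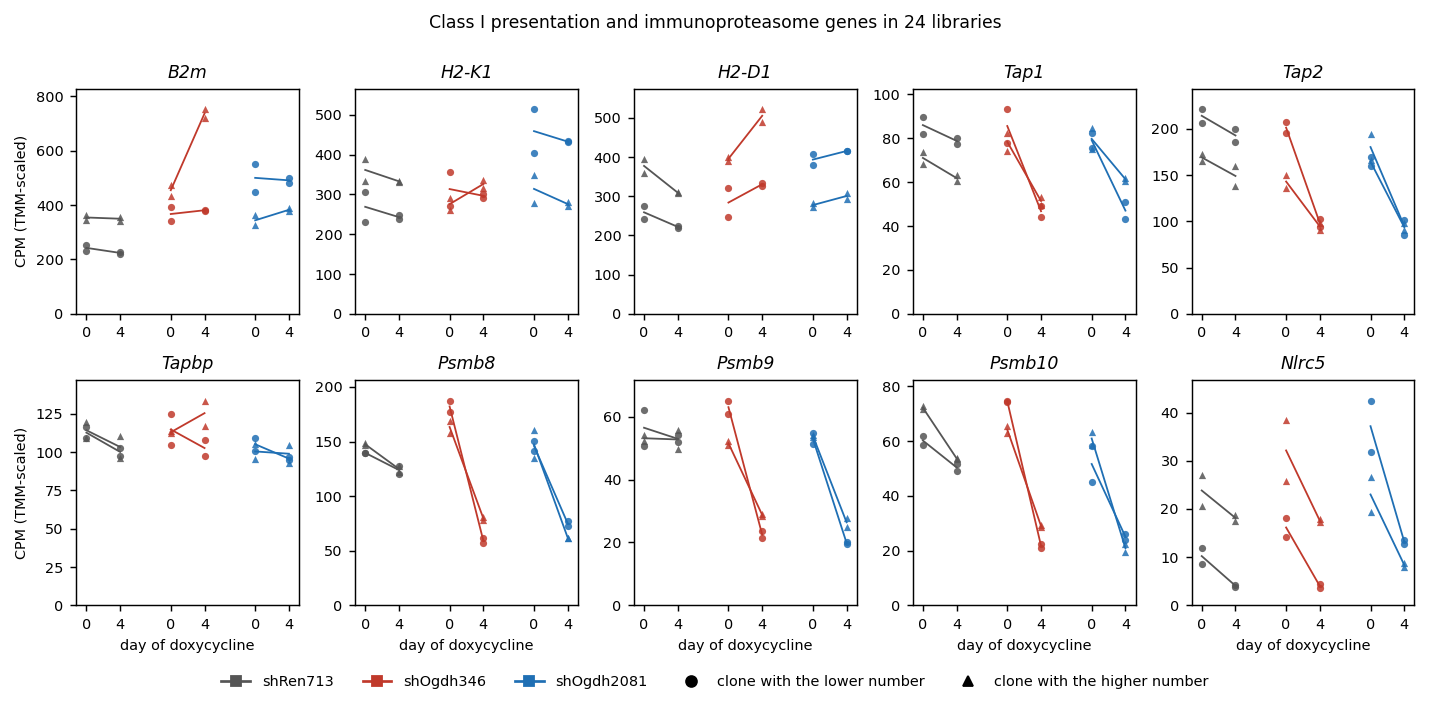
TMM-scaled CPM of the 10 genes at day 0 and day 4. Points are libraries, lines join the means of each clone, colours are hairpins and symbols separate the 2 clones of a hairpin. The Ogdh hairpin lines of Psmb8, Psmb9, Psmb10, Tap1 and Tap2 slope down in all 4 clones, to 68.9, 24.4, 24.3, 51.4 and 94.7 CPM on average, while B2m, H2-K1, H2-D1 and Tapbp show no common fall. Nlrc5 slopes down in all 6 clones, control included.

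Psmb5, Psmb6 and Psmb7, the catalytic subunits of the constitutive proteasome, had net changes of -0.02, -0.18 and -0.21 (SE 0.09, 0.12 and 0.11), and none passed the test. Per base of transcript, the ratio of Psmb8 to Psmb5 was 0.658 ± 0.061 at day 0 and 0.645 ± 0.050 at day 4 in the control (SD, n = 2 clones), and 0.802 ± 0.138 and 0.394 ± 0.035 in the Ogdh clones (n = 4). The log2 change of this ratio was -0.04 to -0.01 over the control clones and -1.44 to -0.75 over the Ogdh clones. The ratio of Psmb9 to Psmb6 went from 0.214 ± 0.012 to 0.237 ± 0.013 in the control and from 0.225 ± 0.028 to 0.130 ± 0.029 in the Ogdh clones. The ratio of Psmb10 to Psmb7 went from 1.42 ± 0.085 to 1.37 ± 0.075 and from 1.37 ± 0.239 to 0.741 ± 0.068. In all 3 ratios the changes of the 4 Ogdh clones lay below those of both control clones (two-sided exact permutation test over 6 clones, p = 0.0667 each, the smallest this design allows).

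**Figure D2:**
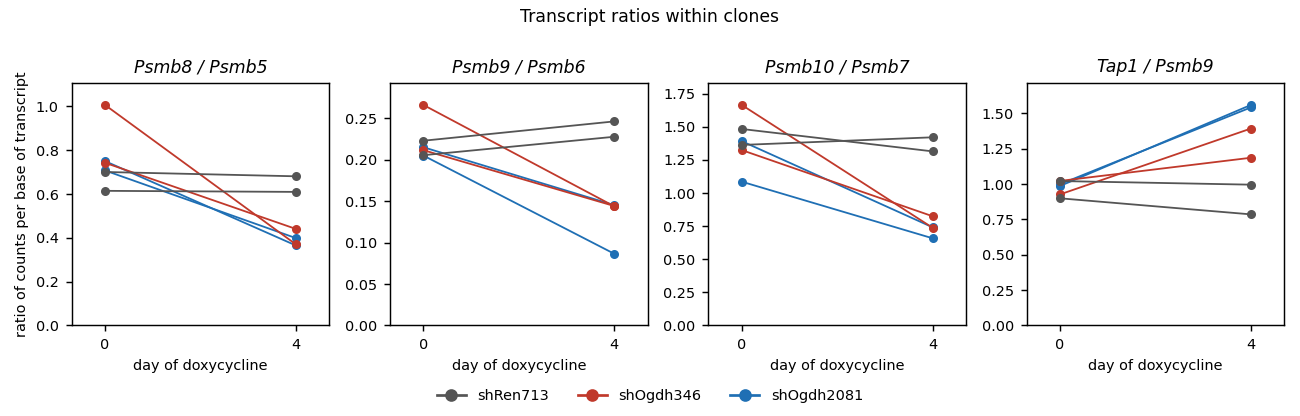
Ratios of counts per base of transcript within clones at day 0 and day 4, with 1 line per clone coloured by hairpin. The 4 Ogdh clones fall in the 3 ratios of immunoproteasome to constitutive subunits, ending at means of 0.394, 0.130 and 0.741, and rise in the ratio of Tap1 to Psmb9, while the control clones change little.

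A list of 19 genes of the constitutive proteasome core, its assembly factor and its activators passed the filter whole, and 6 fell and 0 rose, with a median net change of -0.19 (over all genes tested, 19.8% fell and 17.9% rose). The falls with the smallest p were those of Psma5, a ring subunit (-0.52 ± 0.10, edgeR adjusted p = 0.00395), Psme1, a subunit of the interferon-inducible PA28 activator (-0.52 ± 0.11, 0.00628), and the core subunits Psma7 (-0.48 ± 0.12, 0.0131) and Psmb3 (-0.43 ± 0.11, 0.0151). The partner of Psme1 in that activator, Psme2, had a net change of -0.19 ± 0.12 (adjusted p = 0.258; chosen after its value was seen). Without control clone 2 or without control clone 7, Psma5, Psma7 and Psmb3 missed the threshold (adjusted p = 0.0514 to 0.155), and Psme1 missed it without control clone 2 (0.0998). In size, the net changes of Psmb8, Psmb9 and Psmb10 were each beyond that of every one of these 19 genes.

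Both transporter genes fell. Tap2, whose product forms the transporter with that of Tap1 (ENSMUSG00000024339, chromosome 17, 34203527 to 34216321, plus strand), was at 222, 207, 173 and 165 CPM in control libraries at day 0 and at 186, 200, 139 and 160 at day 4. With shOgdh346 it went from 207, 196, 136 and 150 to 93.7, 102, 90.7 and 98.3. With shOgdh2081 it went from 160, 169, 166 and 195 to 85.4, 102, 91.1 and 98.7. The 8 Ogdh libraries at day 4 spanned 85.4 to 102 CPM, narrower than the 4 control libraries and below all of them. The net change was -0.68 ± 0.12 (edgeR adjusted p = 0.00237).

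Tap1 (ENSMUSG00000037321, chromosome 17, 34187553 to 34197225, plus strand) was at 89.9, 82.2, 74.0 and 68.2 CPM in control libraries at day 0 and at 77.4, 80.3, 60.4 and 63.3 at day 4. With shOgdh346 it went from 93.3, 77.9, 74.2 and 82.6 to 44.2, 49.3, 49.4 and 53.5. With shOgdh2081 it went from 75.8, 82.5, 75.0 and 84.6 to 43.3, 50.8, 60.7 and 62.0. At day 4 clone 5 of shOgdh2081 overlapped the lower control clone, and the other Ogdh clones lay below the control. Its net change was -0.50 ± 0.14 (edgeR adjusted p = 0.0200), with shOgdh346 -0.60 ± 0.16 (0.0185) and with shOgdh2081 -0.40 ± 0.16 (0.0951). The call on the mean net change was lost without control clone 2 (adjusted p = 0.142) and without control clone 7 (0.0896).

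In each Ogdh clone Tap1 changed less than Psmb9, its neighbour across the shared promoter. Per base of transcript, the ratio of Tap1 to Psmb9 was 0.960 ± 0.086 at day 0 and 0.890 ± 0.149 at day 4 in the control, and 0.983 ± 0.041 and 1.42 ± 0.173 in the Ogdh clones. It rose by 0.21 to 0.66 on the log2 scale in the 4 Ogdh clones and changed by -0.19 to -0.04 in the control clones (two-sided exact permutation test, p = 0.0667). The gene models of the pair overlap by 212 bases on opposite strands, and since the strand setting of the counting is not known, reads there cannot be assigned. The ratio of Tap2 to Tap1 changed by -0.54 to 0.01 in the Ogdh clones and by -0.03 to 0.02 in the control (exact permutation p = 0.467).

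Tapasin did not pass the test. Tapbp (ENSMUSG00000024308, chromosome 17, 33915899 to 33929288, plus strand) had 93.2 to 134 CPM over all 24 libraries. Its group means at day 4 were 102 ± 2.26 in the control, 113 ± 14.6 with shOgdh346 and 97.8 ± 3.85 with shOgdh2081. Its net change was 0.12 ± 0.11 (edgeR adjusted p = 0.428). Its model overlaps that of Zbtb22 by 3421 bases on the same strand.

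Of 11 other genes tested that trim or load class I peptides, 7 fell and 1 rose, with a median net change of -0.44. Over all genes tested 19.8% fell and 17.9% rose. Blmh, a cytosolic peptidase, changed by -0.69 ± 0.10 (edgeR adjusted p = 0.000982) and Erap1, the aminopeptidase that trims peptides inside the endoplasmic reticulum, by -0.55 ± 0.09 (0.00227). Thop1, which degrades peptides in the cytosol, changed by -0.79 ± 0.17 (0.00738) and Lap3, a leucine aminopeptidase, by -0.63 ± 0.15 (0.00894). The last 2 missed the threshold without control clone 7 (0.0697 and 0.103). Chosen after their values were seen, Calr (-1.01 ± 0.24, edgeR adjusted p = 0.0117), Canx (-0.41 ± 0.10, 0.0142) and Pdia3 (-0.44 ± 0.13, 0.0237) of the loading machinery also fell. Tapbpl did not pass the test (0.18 ± 0.13, 0.328), and the peptidase Npepps rose (0.49 ± 0.12, 0.0127). The alternatives were not computed for these later genes.

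H2-D1, a classical heavy chain (ENSMUSG00000073411, chromosome 17, 35262730 to 35267499, plus strand), was at 276, 242, 394 and 360 CPM in control libraries at day 0 and at 219, 224, 308 and 310 at day 4. With shOgdh346 it went from 321, 247, 401 and 390 to 327, 335, 522 and 488. With shOgdh2081 it went from 407, 380, 283 and 271 to 414, 417, 293 and 308. At day 0 both Ogdh hairpins overlapped the control. At day 4 all shOgdh346 libraries lay above all control libraries, and shOgdh2081 overlapped the control. The net change was 0.45 ± 0.10 (edgeR adjusted p = 0.00770). It was made of a control change of -0.26 ± 0.08 (adjusted p = 0.0920), a shOgdh346 change of 0.26 ± 0.08 (0.0211) and a shOgdh2081 change of 0.11 ± 0.08 (0.274). Without control clone 2 or 7 the net change was 0.48 and 0.39 and was no longer called (adjusted p = 0.0800 and 0.146).

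H2-K1, the other classical heavy chain (ENSMUSG00000061232, chromosome 17, 33996017 to 34000333, minus strand), had no common direction. Its levels at day 4 were 238, 248, 332 and 334 CPM in the control, 291, 302, 337 and 315 with shOgdh346 and 433, 432, 281 and 270 with shOgdh2081. The net change was 0.11 ± 0.12 (edgeR adjusted p = 0.514), higher in 4 of 8 pairings of Ogdh and control clones. Its ratio to H2-D1 moved by 0.08 to 0.16 in the control clones and by -0.31 to -0.10 in the Ogdh clones (exact permutation p = 0.0667). Heavy chain genes are near copies of each other, and how reads that map to several of them were counted is not given, so values of single H2 genes are uncertain. Summed over 17 H2-K, H2-D, H2-Q and H2-T genes, of which H2-K1 and H2-D1 made up 79.5%, the net change was 0.30 ± 0.12 (edgeR adjusted p = 0.0711).

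B2m, the light chain of all class I molecules (ENSMUSG00000060802, chromosome 2, 122147686 to 122153083, plus strand), was at 220, 228, 358 and 342 CPM in control libraries at day 4. It was at 383, 379, 753 and 721 with shOgdh346 and at 500, 482, 389 and 376 with shOgdh2081. All Ogdh libraries were above all control libraries at day 4, but at day 0 the Ogdh clones already stood at 416 ± 70.0 (n = 4) against 300 ± 81.9 (n = 2). Clone 5 of shOgdh346 rose by 0.71 on the log2 scale, and the other 3 Ogdh clones changed by -0.01 to 0.18. Beyond the control, B2m changed by 0.29 ± 0.18 (edgeR adjusted p = 0.233). Without clone 1 of shOgdh346 it was 0.45 and was called (0.0145).

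Of 14 other class I and class I-like chains tested, 6 rose and 1 fell, with a median net change of 0.54. Over all genes tested 17.9% rose and 19.8% fell. H2-T23, the Qa-1 chain that presents to natural killer receptors, averaged 35.2 CPM at day 0 and 62.3 at day 4 over the Ogdh clones, and 32.9 and 29.1 over the control clones (net change 0.98 ± 0.17, edgeR adjusted p = 0.00236). Cd1d1, which presents lipids, had a net change of 0.70 ± 0.12 (0.00230). Hfe, a class I relative that regulates iron uptake, had -1.58 ± 0.42 (0.0199), and this call was lost without control clone 2 (0.0894) or 7 (0.148). H2-Q10 was also called, at a mean below 1 CPM in every condition, but not without control clone 7 (adjusted p = 1.0) or by DESeq2 (0.0732).

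Nlrc5 (ENSMUSG00000074151, chromosome 8, 94434356 to 94527272, plus strand) fell within both Ogdh hairpins, and its control values at day 4 were lower too. It was at 8.61, 11.8, 20.6 and 27.1 CPM in control libraries at day 0 and at 4.31, 3.83, 17.6 and 18.7 at day 4. With shOgdh346 it went from 14.1, 18.2, 25.8 and 38.5 to 3.59, 4.41, 17.2 and 17.9, and with shOgdh2081 from 31.9, 42.5, 19.4 and 26.6 to 12.8, 13.6, 7.97 and 8.81. On each day the clones of 1 hairpin stood apart and the groups overlapped. The change from day 0 was -1.34 ± 0.28 with shOgdh346 (edgeR adjusted p = 0.00441), -1.47 ± 0.27 with shOgdh2081 (0.00305) and -0.75 ± 0.29 in the control (0.166). The net change was -0.65 ± 0.35 (0.180). Without clone 5 of shOgdh346 it was -0.97 and was called (0.0295).

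**Figure D3:**
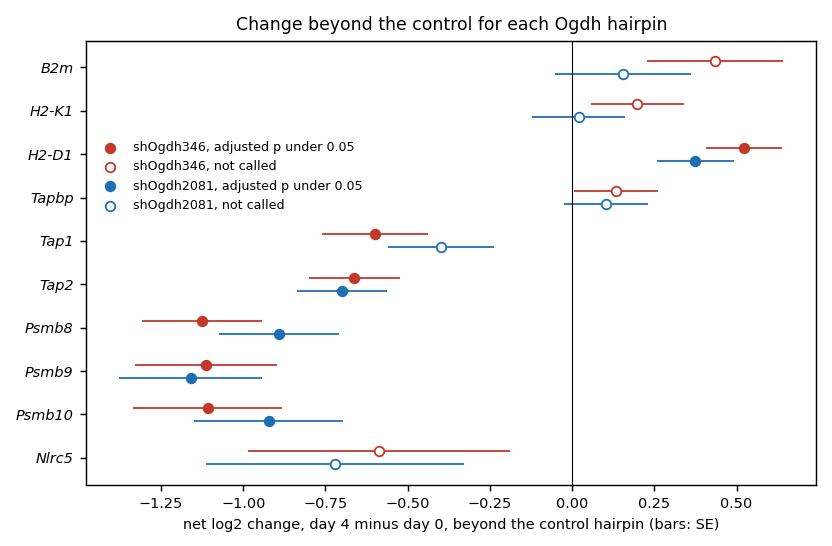
Net log2 change (day 4 minus day 0, minus the control's change) of each gene for shOgdh346 and shOgdh2081, with bars for the SE of the edgeR fit and filled points for adjusted p under 0.05. Psmb8, Psmb9 and Psmb10 lie between -1.16 and -0.89 for both hairpins, the 2 transporter genes between -0.70 and -0.40, and H2-D1 is the 1 gene called above 0.

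The same genes were called with each hairpin except for Tap1. With shOgdh346, 1 gene rose (H2-D1, background 16.4%) and 5 fell (Psmb8, Psmb9, Psmb10, Tap1 and Tap2, background 18.4%). With shOgdh2081, 1 rose (H2-D1, background 13.6%) and 4 fell (the same without Tap1, background 14.2%). The H2-D1 rise with shOgdh2081 (edgeR adjusted p = 0.0403) was lost under 15 of 44 alternatives, among them without control clone 2 (0.197) or 7 (0.315) and without clone 3 (0.0611) or 5 (0.103) of that hairpin. With shOgdh346 it was lost without control clone 2 (0.0691) or 7 (0.118). Without control clone 2 or 7, Psmb9 was the 1 fall left with shOgdh2081, while Psmb8 (adjusted p = 0.0611 and 0.0540), Psmb10 (0.115 and 0.0754) and Tap2 (0.0566 and 0.0501) missed the threshold. Psmb8 (0.0578) and Psmb10 (0.0906) also missed it without clone 5 of shOgdh2081, and Tap1 without clone 1 of shOgdh346 for that hairpin (0.0989). No gene of the 10 differed between the hairpins by edgeR (0 at adjusted p under 0.05 and 0 at unadjusted p under 0.05, and 0 by DESeq2), where 0.0561% of all genes tested were called higher and 0.0491% lower. The differences of shOgdh346 minus shOgdh2081 ran from -0.23 (Psmb8, SE 0.18) to 0.28 (B2m, SE 0.21), and 2 clones per hairpin leave differences within such errors undetectable.

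The control hairpin alone moved none of the 10 past the threshold: edgeR called 0 higher (background 4.44%) and 0 lower (2.44%), DESeq2 called 0, and 2 were lower at unadjusted p under 0.05, H2-D1 and Nlrc5. Before doxycycline, levels of the Ogdh clones and the control clones differed for 0 of the 10 in either direction by edgeR, by DESeq2 and at unadjusted p under 0.05, as for 0% of all genes tested in either direction. At day 0 no gene of the 10 had all Ogdh libraries below all control libraries (background 0.323%) or above them (0.239%). At day 4, 5 of the 10 were lower with the Ogdh hairpins (Psmb8, Psmb9, Psmb10, Tap1 and Tap2, background 21.2%) and 0 were higher (17.5%; 1, B2m, at unadjusted p under 0.05 and by DESeq2). Without overlap at day 4 there were 4 genes below (Psmb8, Psmb9, Psmb10 and Tap2, background 20.1%) and 1 above (B2m, 16.8%).

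Levels per length put the transcripts of the 10 genes in order. The order between genes rests on the deposited lengths, from 860 bases (B2m) to 8493 (Nlrc5). Whether these lengths hold for the transcripts of RN2 cells was not tested. In the control at day 0 the order of CPM per kilobase of transcript was B2m (349), H2-D1 (124), H2-K1 (122), Psmb8 (52.5), Tap2 (50.8), Psmb10 (38.9), Tapbp (34.6), Psmb9 (14.98), Tap1 (14.4) and Nlrc5 (1.97). The neighbours H2-D1 and H2-K1, Psmb8 and Tap2, Psmb10 and Tapbp, and Psmb9 and Tap1 differed by less than the SD over clones. With the Ogdh hairpins at day 4 Tapbp (34.3 and 29.7) stood above Psmb8 (25.4 and 24.96) and Tap2 (25.4 and 24.8), and Tap1 (8.94 and 9.85) above Psmb9 (7.00 and 6.35), for shOgdh346 and shOgdh2081 in turn.

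Of 22 genes tested that control class I transcription, 4 rose and 6 fell, with a median net change of 0.11. These shares are near those over all genes tested (17.9% and 19.8%). Stat3 had a net change of 0.60 ± 0.09 (edgeR adjusted p = 0.000895), Nfya, a subunit of the factor that binds CCAAT boxes, -0.56 ± 0.10 (0.00316), and the NF-kB genes Nfkb1 and Relb -0.41 ± 0.09 (0.00584) and 1.94 ± 0.42 (0.00734). Nfkb1 missed the threshold without control clone 2 or 7 (0.101 and 0.0804), Relb without control clone 2 (0.0760) and Nfya without control clone 7 (0.0642). Chosen after their values were seen, Irf8, a myeloid factor that binds ETS and IRF composite elements, had a net change of -2.01 ± 0.48 (0.0313). Irf1, an inducer of the immunoproteasome genes, had 0.14 ± 0.16 (0.527). The alternatives, such as leaving out a control clone, were not computed for Irf8 and Irf1.

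Of 12 interferon receptors, kinases and brakes tested, 5 rose and 0 fell (median 0.44, against 17.9% and 19.8% over all genes tested), among them Jak1 (0.73 ± 0.10, edgeR adjusted p = 0.000604) and Jak2 (0.63 ± 0.11, 0.00268), Ifngr2, a chain of the interferon gamma receptor (0.61 ± 0.12, 0.00420), and Ptpn1, a phosphatase that acts on Janus kinases (0.61 ± 0.12, 0.00489). Jak2 and Ptpn1 missed the threshold without control clone 7 (0.0549 and 0.0856) and Ifngr2 without control clone 2 (0.0808). Of 21 other interferon-inducible genes, 6 rose and 3 fell (median 0.17), beside the same 17.9% and 19.8%. Cd274, the PD-L1 gene, averaged 7.28 CPM at day 0 and 23.3 at day 4 over the Ogdh clones (net change 2.05 ± 0.22, 0.000234), and Ddx58 and Oas2, which sense viral RNA, had 2.33 ± 0.25 (0.000260) and 2.85 ± 0.42 (0.00101). Ifit2 fell (-0.98 ± 0.16, 0.00154).

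**Figure D4:**
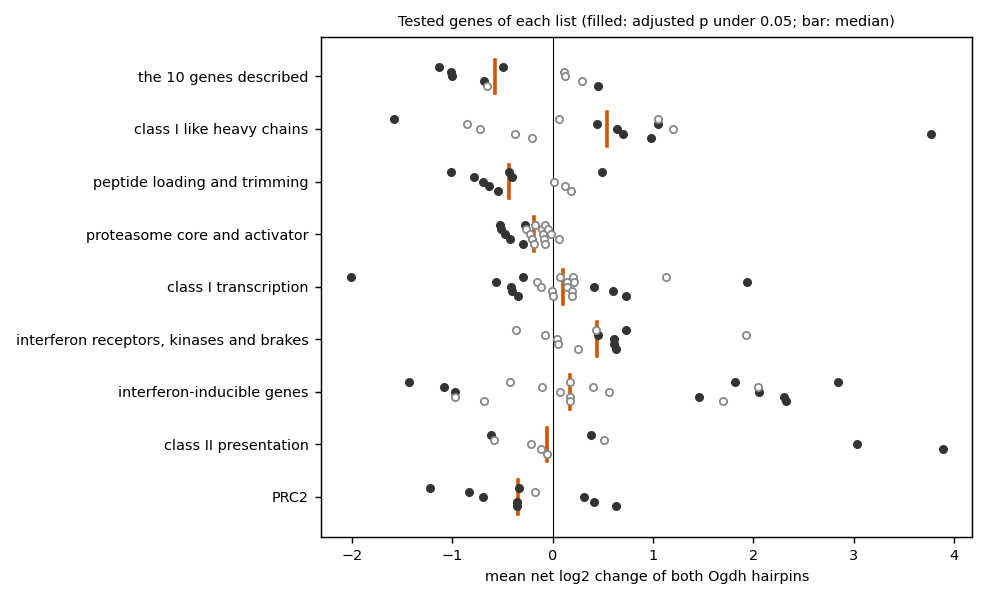
Mean net log2 change of every tested gene in the lists named on the vertical axis, with filled points for adjusted p under 0.05 and a bar at each list's median. The medians are -0.58 for the 10 genes described, -0.44 for peptide loading and trimming, 0.54 for class I-like heavy chains and 0.44 for interferon receptors, kinases and brakes.

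Of 10 genes tested of Polycomb repressive complex 2, which can silence class I genes in tumours, 6 fell and 3 rose (median -0.34). Over all genes tested 19.8% fell and 17.9% rose, the background for every list of this paragraph. Ezh2, its methyltransferase, had a net change of -0.83 ± 0.09 (edgeR adjusted p = 0.000212), Phf19 -1.22 ± 0.14 (0.000363) and Rbbp7 -0.70 ± 0.09 (0.000430), while Ezh1, the alternative methyltransferase, had 0.63 ± 0.11 (0.00247, and 0.0626 without control clone 7). Class II presentation, which serves helper T cells, gave 3 rises and 1 fall in 9 genes tested. Cd74 and H2-Ab1 were called at means of at most 1.12 CPM in any condition, H2-DMb1 had a net change of 0.39 ± 0.10 (0.0163) and H2-DMa -0.61 ± 0.18 (0.0239). All 4 calls were lost without control clone 7 (adjusted p = 0.0739 to 0.275). Ligands of natural killer receptors gave 5 rises and 0 falls in 8 tested (median 0.93). Raet1d and Raet1e, which are recognised by NKG2D, averaged 0.877 ± 0.536 and 1.11 ± 0.897 CPM (SD) at day 0 over the Ogdh clones. At day 4 they averaged 16.9 ± 9.24 and 16.7 ± 13.1 (net changes 5.43 ± 0.41 and 3.95 ± 0.31, edgeR adjusted p = 5.77e-05 and 6.61e-05). Raet1e lost its call without the clone block (0.106). Nectin2 (0.81 ± 0.18, edgeR adjusted p = 0.00746) and H60b (2.59 ± 0.66, 0.0140) were called too, H60b at means of at most 1.08 CPM. Nectin2 missed the threshold without the clone block (0.211) and H60b by DESeq2 (0.0518). Ulbp1, chosen after its value was seen, had the highest level of the list. It averaged 118 ± 17.3 CPM at day 0 and 105 ± 35.7 at day 4 over the Ogdh clones (net change -0.12 ± 0.18, 0.650).

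Among the markers of other cell types, those of neutrophil maturation stood out. Of 12 tested 9 rose and 0 fell. Over all genes tested 17.9% rose and 19.8% fell, the background for every marker count here. The 4 neutrophil maturation markers with the smallest p, S100a9, Itgam, Lcn2 and S100a8, had net changes of 4.67, 2.07, 5.23 and 3.40. The 12 markers summed at day 4 to 457 to 1542 CPM over the control libraries, 19416 to 44064 with shOgdh346 and 7083 to 12693 with shOgdh2081. Every marker of the list had counts in each group. In bulk RNA fewer cells of a type and less RNA per cell cannot be told apart. Monocyte and macrophage markers (4 of 11 rose and 1 fell) summed to 1596 to 1930 CPM in control libraries at day 4, 2219 to 3212 with shOgdh346 and 1913 to 2383 with shOgdh2081. The largest part of that sum was Ly6c2, which averaged 1322 CPM in the control and 1421 over the Ogdh clones at day 4. Gpnmb, Lgals3, Adgre1 and Cd68 rose, with net changes of 3.99, 3.79, 1.19 and 0.67 (edgeR adjusted p of at most 0.0282). The 1 fall was Cx3cr1 (-0.78 ± 0.24, 0.0326), chosen, as was Ly6c2, after its value was seen. Lymphocyte markers summed to at most 1.22 CPM and dendritic cell markers to at most 1.54 CPM in any library. Among them Cd79a was not called (net change 1.83 ± 0.66, edgeR adjusted p = 0.0558). Xcr1 was called lower (-2.41 ± 0.79, 0.0393), at means of at most 0.559 CPM, but not without the filter (0.0889). Cd3e, of T cells, and Ncr1, of natural killer cells, had no count in any library. Of 3 erythroid and stromal markers tested, 1 rose (Col1a1, at a mean of at most 1.31 CPM). Pecam1 (net change 0.10 ± 0.13, edgeR adjusted p = 0.572) and Epcam (4.67 ± 2.64, 0.197) were not called. This list summed to 243 to 382 CPM over libraries, of which Pecam1 alone held 239 to 381. Of 9 genes that mark the leukaemia line 3 rose and 2 fell, and all had counts in every group. Cd33 (net change 1.86 ± 0.15, edgeR adjusted p = 7.31e-05), Ptprc, the leukocyte antigen CD45 (0.95 ± 0.10, 0.000204), and Spi1 (0.62 ± 0.09, 0.00119) rose. Ptprc was at 303 ± 17.2 CPM (n = 2) in the control at day 4 and at 628 ± 79.5 (n = 4) with the Ogdh hairpins. Kit fell (-1.03 ± 0.14, 0.000857), as did Mpo (-2.46 ± 0.32, 0.00142), chosen after its value was seen. Part of the Mpo net change was a control rise of 1.39 (0.0281).

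Over the 12 sums of a clone and day, centred per clone, the genes outside the lists most like the mean course of the 10 were Ptpra, Pgls, Wnt10b, Tax1bp1 and Pan3 (Pearson r of 0.997 to 0.999, a description, since the 2 days of a clone mirror each other and leave 6 independent changes). Their net changes were -0.25, -0.57, -1.96, -0.38 and -0.26, of which that of Tax1bp1 passed the test (edgeR adjusted p = 0.0406) and the others did not (0.0617 to 0.116).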

How the data were processed

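RNA was measured in 24 libraries of RN2 cells in 6 groups of hairpin and day. The authors deposited raw counts for each Ensembl gene and a transcript length in bases. Tools named in the submitters' processing notes are featureCounts 1.6.3, STAR 2.6.1a, Trimmomatic 0.36 and FastQC 0.11.5, with the build mm10 (GRCm38). Per the labels' protocols, polyadenylated RNA was sequenced as single ends. That protocol also names a human build, HTSeq and an RPKM matrix, which the counts under mouse identifiers do not match. Neither strand setting nor treatment of multiply matching reads is stated in the sources used here, so near copies and overlapping genes are uncertain.

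Both libraries from a clone at a given day were added up (12 sums), then filtered with filterByExpr (14249 genes left), scaled with TMM and fitted with edgeR 4.0.16 in R 4.3.3, by robust quasi-likelihood, in a design of clone blocks plus 1 day 4 term per hairpin (3 residual and a median of 6.11 prior degrees of freedom). Clones pair the days by the labels. Deviations of clones from their group means correlated across days at 0.838, 0.603 and 0.668 for shRen713, shOgdh346 and shOgdh2081. Levels within a day used 6 groups without the block, where each clone enters on both days and the 6 residual degrees of freedom are overstated. Benjamini-Hochberg adjustment covered every tested gene, with a threshold of 0.05. Levels are CPM on TMM-scaled totals, and per length CPM per kilobase of the deposited transcript length. A log2 CPM with a prior count of 2 was used for changes of single clones and for likeness. The fit was also run on simulated data with clone effects equal on both days, and no result here rests on that run.

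All 10 genes are named, with up to 4 genes of smallest p from each other list, Ogdh, and the 5 genes of at least 5 CPM most like the mean course. Of 216 listed symbols 214 matched, and for Itgam, on several rows, the row with most counts was used. The genes and lists were chosen with earlier results of these data known. Alternatives included other scalings, DESeq2 1.42.0, other filters, no block, single libraries and leaving out each clone or library. Promoters are from RefSeq (GRCm38.p6).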

Additional observations from a re-analysis of the deposited data

How the results depend on the processing

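Psmb8, Psmb9 and Psmb10 kept their fall in the mean net change under all 43 alternatives, with net changes of -1.17 to -0.88, -1.31 to -0.97 and -1.18 to -0.88 and adjusted p of at most 0.0204, 0.0264 and 0.0482 (edgeR, or DESeq2 as 1 alternative). Without the clone as a replicate block, 0 genes rose and 3 fell in the mean net change and with shOgdh346, and 0 rose with shOgdh2081. Over all genes tested 1129 then rose and 1603 fell, against 2549 and 2818 with the block. Without the block Tap1, Tap2 and H2-D1 lost their calls (edgeR adjusted p = 0.122, 0.0602 and 0.445), Tap2 under no other alternative. H2-D1 also lost it with H2 genes summed (0.0711), Tap1 with replicate 1 alone (0.0799) or with day 0 replicate 1 alone (0.0594), and both without either control clone. Cd1d1, Ifit2, Ifngr2, Lap3, Thop1, Psma5, Psma7, Psmb3, S100a8 and S100a9 also lost their calls without the block (edgeR adjusted p = 0.0612 to 0.208). So did Raet1e, Nectin2, H2-Q10, H2-Ab1, H2-DMa, H2-DMb1, Adgre1, Cd68, Gpnmb, Kit and Xcr1 (0.106 to 0.433).

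With libraries as units, 2 genes rose in the mean net change, with shOgdh346 and in the level at day 4, and 3 fell in the control. With a replicate block added after seeing the data, 2 rose in the mean net change, 4 rose with shOgdh346 and 4 fell in the control. With no filter, 2 rose with shOgdh346, 0 with shOgdh2081 and 2 fell in the control, while 6 fell in the mean net change and with each hairpin, Nlrc5 being added (mean net change, 0.00437) and Tap1 with shOgdh2081 (0.0427). At adjusted p under 0.01, 0 rose with shOgdh2081, and 1480 and 1658 of all genes were called. DESeq2 gave 1 rise in the level at day 4. Replicate 1 alone gave 0 rises with shOgdh2081, also for day 0 alone, and 1 fall in the control, and replicate 2 alone gave 2 rises with shOgdh346.

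Leaving out 1 clone or library gave 4 to 6 falls and 0 to 2 rises in the mean net change and with shOgdh346, 1 to 5 falls and 0 to 1 rises with shOgdh2081, 0 to 1 falls in the control and 4 to 5 falls in the level at day 4. The 1 fall with shOgdh2081 came without control clone 2 or 7. Over all genes 1156 and 1236 were called without control clone 2, and 991 and 1093 without clone 7. Near 0, the sign turned for H2-K1 (mean net change -0.00196 to 0.20, shOgdh346 -0.0157 to 0.39, shOgdh2081 -0.0825 to 0.12, and -0.0217 from day 0 replicate 1 alone) and for Tapbp (shOgdh346 -0.0370 to 0.28), with none called where the sign turned. The 28 counts at the lowest limit precision for Nlrc5. The cause of these shifts was not tested.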
